A study of Macaca mulatta with 39 samples.

Results

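The extracellular proteases of the matrix metalloproteinase (MMP), ADAM and ADAMTS families, and the tissue inhibitors of metalloproteinases (TIMPs), were examined across embryonic stem cells (ESCs), teratoma fibroblasts and skin fibroblasts of the rhesus macaque. Members were taken by symbol, as every gene named MMP, TIMP, ADAM or ADAMTS followed by a number in the array's probe annotation. This gave 51 of the 14132 genes measured, made up of 22 MMP, 3 TIMP, 9 ADAM and 17 ADAMTS genes. A probe set is a group of probes for 1 transcript, and a gene with several was represented by the brightest, taken by the mean of the 39 arrays. All 51 entered the tests, since no filter on low signal was applied. ADAM17 and TIMP4 were not analysed here.

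MMPs are zinc-dependent proteases that are made as inactive precursors and cut collagens, gelatin, elastin and other matrix proteins once activated. ADAMs are mostly membrane-bound and release the outer parts of growth factors and adhesion proteins from the cell surface, while ADAMTS enzymes are secreted and act on proteoglycans, procollagens and microfibrils. TIMPs bind the active site of these enzymes and block it, and fibroblasts are known as a main source of both the enzymes and the inhibitors.

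The ESC lines were C3806, which is female, and C3106, which is male, so each sex was represented by a single line. Teratoma fibroblasts had been grown out of the tumours that these lines formed in immune-compromised mice. There were 3 such cultures of line 3806 (TA38, TB38 and TC38) and 5 of line 3106 (TA31 to TE31). Skin fibroblasts were grown from the animals whose gametes gave the lines (cultures M032, M088 and M106p1). The sources used here do not say how the parents match the lines, how old they were, how the cells were grown or on what layer the ESCs were kept. The teratoma cultures of a line share their genome with it, and no group carried a further genetic change or treatment that the labels name.

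Each of the 13 sources had 3 arrays, called biological triplicates in the labels. The arrays labelled C3806c, M106p1f and TB31c went against their labels and were left out, which left 5 ESC, 23 teratoma and 8 skin arrays. C3806c, for example, had a log2 signal of 11.24 for ADAM12, 12.81 for TIMP1 and 4.84 for the pluripotency gene POU5F1, all within the range of fibroblasts. MMP3 was at 9.20 in M106p1f, against a mean of 5.81 in the other arrays of that culture, and at 5.67 in TB31c, against 7.29 in the others. With all 39 arrays, 14 members rather than 16 were called lower in ESCs than in teratoma fibroblasts. Levels are deposited log2 signals, and a difference of 1 is a difference of 1 log2 unit. In the used arrays the mean of 9 pluripotency markers lay at 11.08 and 11.27 in the ESC lines, between 5.34 and 6.09 in teratoma cultures and between 5.15 and 5.26 in skin cultures. The mean of 8 fibroblast markers was 6.60 and 6.68 in the ESC lines, 11.38 to 11.82 in teratoma cultures and 11.36 to 11.58 in skin cultures. Skeletal muscle markers varied among teratoma cultures, with means over 11 genes of 8.67 in TB31 and 8.41 in TD31 and 5.73 to 7.21 in the other 6. The mean of 10 leukocyte markers lay between 5.67 and 5.96 in every source.

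ESCs were set against each kind of fibroblast to find the members that separate pluripotent from differentiated cells of shared ancestry. Of the 51 members, 16 were lower and 2 were higher in ESCs than in teratoma fibroblasts, where 8.36% of all genes were called lower and 6.49% higher. A call required a Benjamini-Hochberg adjusted p under 0.05 in limma over all genes and a log2 difference of at least 1 between the means of sources. Against skin fibroblasts, 15 members were lower and 4 higher in ESCs, where 9.91% of all genes were called lower, 10.3% higher and 20.2% either way. The share called either way against teratoma fibroblasts was 35.3% of the members and 14.9% of all genes. The median log2 difference over the members was −0.42 against teratoma fibroblasts and −0.18 against skin fibroblasts, and over all genes it was 0.03 in both comparisons. Both comparisons share the ESC arrays, and 14 members were lower and 2 higher in each of them. In cultures measured in bulk, fewer cells of a type and less RNA per cell cannot be told apart.

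**Figure D1:**
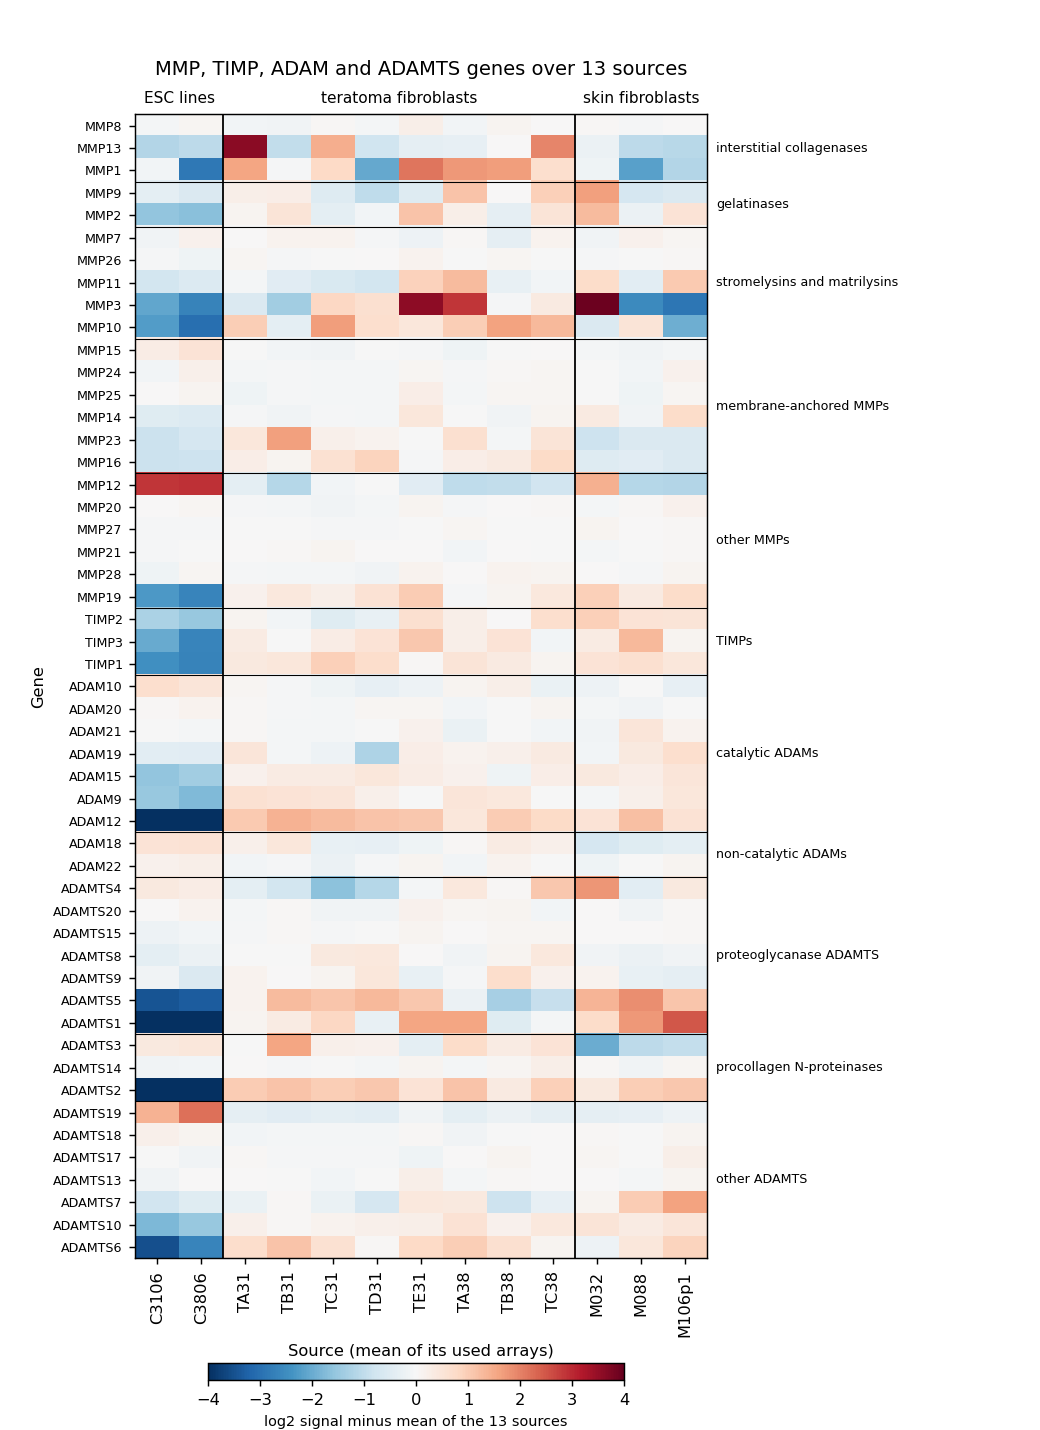
Log2 signal of the 51 members (rows, grouped by role) in the 13 sources (columns), each as the source mean minus the gene's mean over the sources, with colours limited to differences of −4 to 4. ADAM12, ADAMTS1 and ADAMTS2 stand out as low in both ESC lines, MMP12 and ADAMTS19 as high there, and MMP1, MMP3 and MMP13 differ from culture to culture.

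Among the membrane-bound ADAMs, ADAM12 separated the cells most widely. ADAM12 releases EGF-family growth factors from mesenchymal cells. Its log2 signal was 5.15 in C3106 and 4.89 in C3806, against a lowest of 10.76, a median of 11.36 and a highest of 11.70 in teratoma cultures, and 10.83, 11.51 and 10.89 in the skin cultures M032, M088 and M106p1. Neither ESC line came near any fibroblast culture. The log2 difference was −6.30 (SE 0.22, limma adjusted p = 9.32e-10) against teratoma and −6.05 (SE 0.26, adjusted p = 6.93e-09) against skin fibroblasts. All 3 probe sets of ADAM12 were called lower in ESCs against both kinds, with the smallest difference at −3.72.

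Of the 7 ADAMs with a working protease site, 3 were called lower in ESCs against each kind of fibroblast and none higher. That was 42.9% of the list, where 14.9% of all genes were called either way against teratoma and 20.2% against skin fibroblasts. ADAM9, a sheddase of wide tissue range, had a log2 signal of 9.68 ± 0.19 in ESCs, 11.66 ± 0.25 in teratoma and 11.52 ± 0.28 in skin fibroblasts (SD over 2, 8 and 3 sources). The difference was −1.98 against teratoma (limma adjusted p = 4.49e-06) and −1.84 against skin fibroblasts (adjusted p = 2.61e-05). ADAM15, whose human protein carries an integrin-binding motif, had means of 6.76 ± 0.13 in ESCs, 8.47 ± 0.19 in teratoma and 8.62 ± 0.11 in skin fibroblasts. Its differences of −1.71 and −1.86 came from the brighter of its probe sets, and the next one gave −0.28 in both comparisons.

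ADAM10 and ADAM19 did not follow ADAM12. ADAM10, which cleaves Notch receptors and N-cadherin, had a log2 signal of 12.26 and 12.08 in the ESC lines, 11.27 to 11.82 in teratoma cultures and 11.26 to 11.58 in skin cultures. Both ESC lines lay above every fibroblast culture, and the difference of 0.65 from teratoma fibroblasts (limma adjusted p = 0.00284) was below the size limit for a call. ADAM19, which releases neuregulins, had means of 10.18 in ESCs, 10.60 in teratoma and 10.92 in skin fibroblasts, and its difference of −0.42 from teratoma fibroblasts had an adjusted p of 0.382. The inactive ADAM18, known from the testis, had means of 6.32 in ESCs, 5.82 in teratoma and 5.25 in skin fibroblasts. ADAM18 was higher in ESCs than in skin fibroblasts by 1.07 (adjusted p = 0.00152), a call that lay close to the size limit and went below it at 0.998 without skin culture M032. On its other probe set ADAM18 had means of 6.39 in ESCs, 5.27 in teratoma and 5.41 in skin fibroblasts, and there it was called against teratoma fibroblasts (1.13, adjusted p = 0.000769 over all probe sets) and not against skin fibroblasts (0.99).

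Of the 3 proteases that trim procollagen at its N-terminus, ADAMTS2 was lower and ADAMTS3 higher in ESCs than in skin fibroblasts. ADAMTS2 removes the N-propeptide of type I procollagen. Its log2 signal was 5.22 in C3106 and 5.38 in C3806, against a lowest of 10.48, a median of 11.13 and a highest of 11.28 in teratoma cultures and 10.54, 11.12 and 11.20 in the skin cultures. As for ADAM12, the ESC lines lay far below all 11 fibroblast cultures. The difference was −5.73 (SE 0.22, limma adjusted p = 1.77e-09) against teratoma and −5.65 (SE 0.25, adjusted p = 1.1e-08) against skin fibroblasts.

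ADAMTS3, which acts on type II procollagen, separated skin fibroblasts from the other cells instead. Its log2 signal was 7.34 and 7.41 in the ESC lines, 6.56 to 8.55 in teratoma cultures with a median of 7.23, and 4.99, 5.91 and 6.02 in the skin cultures M032, M088 and M106p1. No skin culture reached the lowest teratoma culture or either ESC line. ESCs exceeded skin fibroblasts by 1.73 (limma adjusted p = 0.00894) and teratoma fibroblasts by 0.02 (adjusted p = 0.976). Without ESC line C3806 the difference from skin fibroblasts was 1.70 with an adjusted p of 0.0536, so the call was lost. ADAMTS14, the remaining member with this role, stayed between 6.86 and 7.25 in all sources.

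Of the 7 proteoglycanases, ADAMTS1 and ADAMTS5 were called lower in ESCs against each kind of fibroblast, and none was called higher. The called share was 28.6% of the list, against 14.9% of all genes for teratoma and 20.2% for skin fibroblasts. ADAMTS1 and ADAMTS5 cleave aggrecan and versican, the large proteoglycans of cartilage and of loose matrix. ADAMTS1 had a log2 signal of 5.57 and 5.59 in the ESC lines, a lowest of 9.32, a median of 10.04 and a highest of 11.41 in teratoma cultures, and 10.55, 11.56 and 12.30 in the skin cultures. The ESC lines differed from each other by far less than the fibroblast cultures did. Against teratoma fibroblasts the difference was −4.68 (SE 0.56, limma adjusted p = 3.49e-05), and against skin fibroblasts −5.89 (SE 0.65, adjusted p = 1.74e-05).

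ADAMTS5 had a log2 signal of 4.23 in C3106 and 4.36 in C3806, and 9.05, 9.56 and 8.79 in the skin cultures. Teratoma cultures fell into a lower range of 6.36 to 7.45 for the 3 of line 3806 and a higher one of 7.82 to 8.997 for the 5 of line 3106. ESCs differed by −3.70 (SE 0.65, limma adjusted p = 0.000605) from teratoma and by −4.84 (SE 0.75, adjusted p = 0.000225) from skin fibroblasts. ADAMTS4, also an aggrecanase, had means of 8.02 in ESCs, 7.37 in teratoma and 8.26 in skin fibroblasts and was not called. ADAMTS9, a versicanase, had means of 10.46 in ESCs, 10.97 in teratoma and 10.65 in skin fibroblasts and was not called either. The brightest sets of ADAMTS15 and ADAMTS20 spanned less than 0.5 over the 13 sources.

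ADAMTS6 and ADAMTS10, related secreted proteases that act around fibrillin microfibrils, were both called lower in ESCs. ADAMTS6 had a log2 signal of 4.34 and 5.20 in the ESC lines, 7.90 to 8.99 in teratoma cultures and 7.63 to 8.72 in skin cultures, with differences of −3.71 (limma adjusted p = 2.42e-06) and −3.45 (adjusted p = 1.52e-05). ADAMTS10 had means of 7.44 ± 0.20 in ESCs, 9.36 ± 0.17 in teratoma and 9.56 ± 0.11 in skin fibroblasts, with differences of −1.92 and −2.11. Neither call was seen on the gene's next probe set, where ADAMTS6 differed by −0.04 from both kinds and ADAMTS10 by −0.11 from teratoma and −0.07 from skin fibroblasts. ADAMTS7, which cleaves the cartilage protein COMP, had means of 7.70 in ESCs, 8.12 in teratoma and 9.22 in skin fibroblasts, and was called lower in ESCs than in skin fibroblasts (−1.52, adjusted p = 0.0126). Without ESC line C3106 the difference was −1.38 (adjusted p = 0.0836) and no longer called, with 1 ESC source left that is assumed to vary like the other groups.

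**Figure D2:**
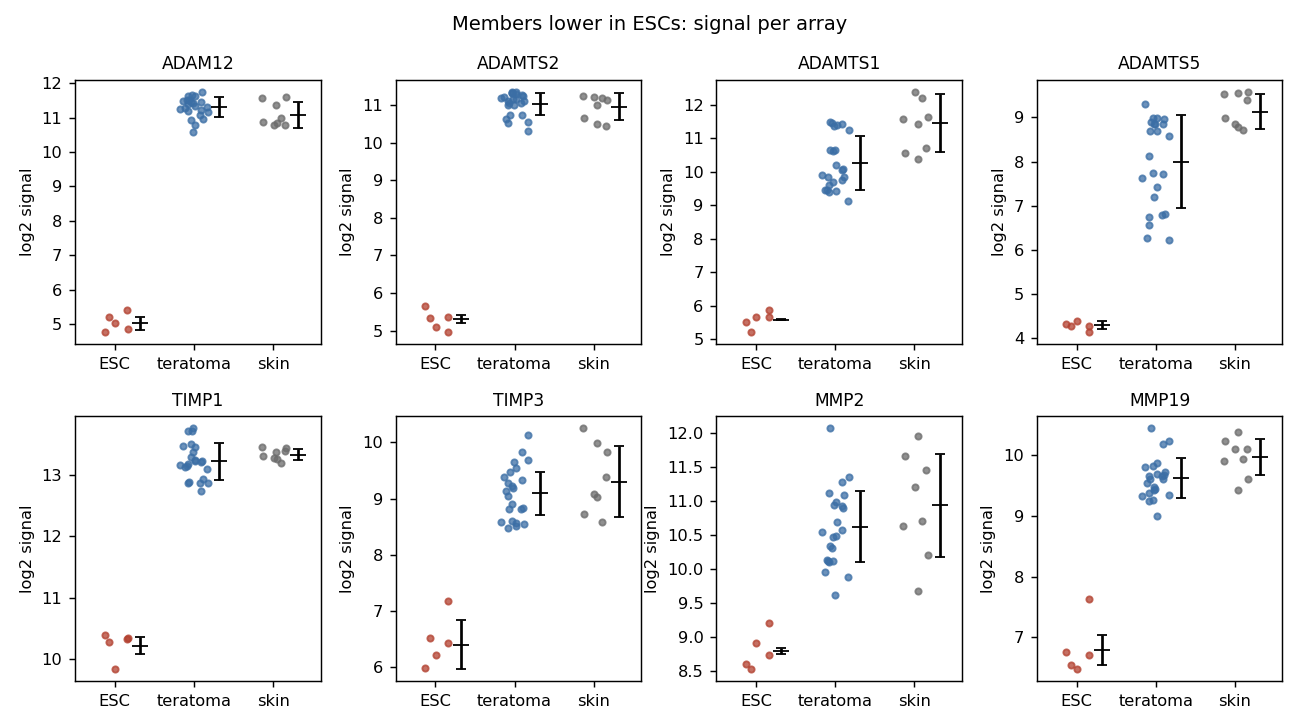
Log2 signal per array (points) in ESC, teratoma and skin cells for 8 members called lower in ESCs, with the mean and SD over 2, 8 and 3 sources beside them. No ESC array reached the fibroblast range in any of the 8 panels, and each panel has its own axis.

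The inhibitors, like these enzymes, were lower in ESCs than in fibroblasts, and all 3 TIMPs were called in both comparisons. Of all genes, 14.9% were called either way against teratoma and 20.2% against skin fibroblasts. TIMP1, a secreted inhibitor of most MMPs, had a log2 signal of 10.32 and 10.12 in the ESC lines, a lowest of 12.83, a median of 13.19 and a highest of 13.72 in teratoma cultures, and 13.31, 13.42 and 13.24 in the skin cultures. It was near the top of the array's range in every fibroblast culture. The difference was −2.99 (SE 0.19, limma adjusted p = 1.37e-07) against teratoma and −3.10 (SE 0.22, adjusted p = 4.31e-07) against skin fibroblasts. The size depended on the probe set, and the next brightest set of TIMP1 gave −0.38 and −0.66.

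TIMP3, which is held in the matrix and also blocks ADAMTS4 and ADAMTS5, had a log2 signal of 6.70 and 6.09 in the ESC lines, 8.61 to 9.81 in teratoma cultures and 8.83 to 10.02 in skin cultures. Its differences were −2.70 (limma adjusted p = 3.43e-05) and −2.91 (adjusted p = 5.62e-05). TIMP2, which also helps to activate the precursor of MMP2 at the cell surface, had a log2 signal of 8.31 and 8.06 in the ESC lines, 9.10 to 10.26 in teratoma cultures and 10.10 to 10.55 in skin cultures. ESCs differed by −1.50 (adjusted p = 0.000749) from teratoma and by −2.08 (adjusted p = 0.000179) from skin fibroblasts, and the other TIMP2 probe set was called in the same direction in both.

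Among the MMPs, MMP2 and MMP19 showed the same order of cells. MMP2, the gelatinase made by resting fibroblasts, had a log2 signal of 8.83 and 8.76 in the ESC lines, a lowest of 10.03, a median of 10.59 and a highest of 11.57 in teratoma cultures, and 11.69, 10.17 and 10.96 in the skin cultures. The MMP2 difference was −1.83 (limma adjusted p = 0.00282) from teratoma and −2.15 (adjusted p = 0.00238) from skin fibroblasts. The other MMP2 probe set, at a mean of 6.52 in ESCs and 6.51 in teratoma fibroblasts, showed no such order. MMP19, which acts on basement membrane proteins, had a log2 signal of 6.96 and 6.62 in the ESC lines, 9.23 to 10.29 in teratoma cultures and 9.64 to 10.24 in skin cultures. Its differences were −2.84 (adjusted p = 1.34e-06) and −3.18 (adjusted p = 2e-06), while its next probe set gave −0.02 and −0.13.

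MMP9, the inducible gelatinase, was not called in either comparison, with means of 6.64 ± 0.13 in ESCs, 7.20 ± 0.74 in teratoma and 7.26 ± 1.32 in skin fibroblasts. The membrane-anchored MMP14, which activates the precursor of MMP2, had means of 7.80 in ESCs, 8.31 in teratoma and 8.62 in skin fibroblasts. Its differences of −0.51 (limma adjusted p = 0.0469) and −0.83 (adjusted p = 0.00816) were below the size limit. MMP14 passed the limit against skin fibroblasts at −1.10 on its next probe set, and at −1.05 without skin culture M088.

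A pair of membrane-anchored MMPs were highest in the teratoma cultures. MMP16 had a log2 signal of 6.37 and 6.39 in the ESC lines, 7.19 to 8.14 in teratoma cultures and 6.66 to 6.77 in skin cultures, so the teratoma cultures lay above all others. The difference between ESCs and teratoma fibroblasts was −1.26 (limma adjusted p = 0.000363). MMP23 had 7.31 and 7.50 in the ESC lines, 8.07 to 9.80 in teratoma cultures and 7.33 to 7.59 in skin cultures. The same difference for MMP23 was −1.19 (adjusted p = 0.0136), and with 1 ESC source left it was not called, at −1.10 without C3106 (adjusted p = 0.106) and −1.29 without C3806 (adjusted p = 0.0683).

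MMP12 and ADAMTS19 were the members called higher in ESCs against both kinds of fibroblast. ADAMTS19, a protease with few known substrates, had array values of 6.88, 7.30 and 6.51 in C3106 and 7.81 and 7.60 in C3806. Its source means were 5.03 to 5.35 in teratoma cultures and 5.14 to 5.28 in skin cultures, and no ESC array came down to that range. The difference was 2.15 (SE 0.15, limma adjusted p = 4.34e-07) against teratoma and 2.11 (SE 0.18, adjusted p = 1.98e-06) against skin fibroblasts. The other ADAMTS19 probe set gave 3.49 and 3.57.

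MMP12, the elastase best known from macrophages, had array values of 6.14, 7.42 and 10.90 in C3106 and 10.04 and 6.40 in C3806. Teratoma cultures lay between 4.17 and 5.28, and the skin cultures M032, M088 and M106p1 at 6.74, 4.17 and 4.15. The arrays of an ESC line thus differed by more than 3 log2 units, and 2 of the 5 lay below skin culture M032. Differences were 3.49 (SE 0.55, limma adjusted p = 0.000261) from teratoma and 3.17 (SE 0.63, adjusted p = 0.00136) from skin fibroblasts. The means of the 10 leukocyte markers were 5.76 to 5.95 in the 5 ESC arrays and 5.72 in M032, which was within the range of the other cultures.

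**Figure D3:**
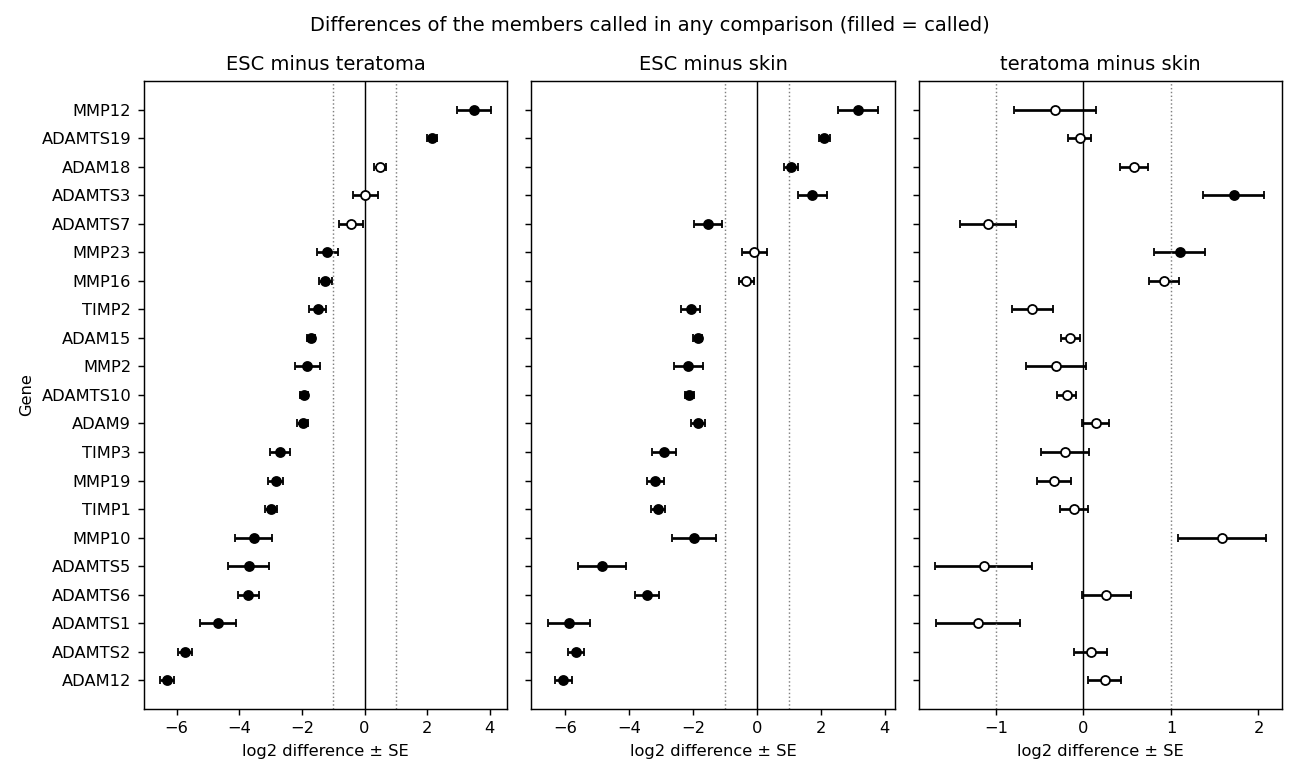
Log2 differences with SE (bars) for the 21 members called in at least 1 of 3 comparisons, with filled points for calls and dotted lines at the size limit of 1. ADAM12 lies lowest and MMP12 highest against both kinds of fibroblast, with ADAMTS2 next lowest against teratoma and ADAMTS1 against skin fibroblasts. In teratoma minus skin fibroblasts, which has a narrower axis, only MMP23 and ADAMTS3 are filled.

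MMP12 lies within a run of 9 neighbouring protein-coding genes on rhesus chromosome 14, in the RefSeq order MMP7, MMP20, MMP27, MMP8, MMP10, MMP1, MMP3, MMP12 and MMP13. The run includes classic secreted collagenases, stromelysins and a matrilysin, and several of its genes are known to be induced by cytokines. MMP20, MMP27 and MMP8 spanned less than 0.5 over the 13 sources. MMP7, a matrilysin, stayed between 8.82 and 9.37 on the brightest of its 4 probe sets. Its other sets had means of 7.99, 4.08 and 3.57 over the used arrays. MMP10, MMP1, MMP3, MMP12 and MMP13 each spanned more than 3 log2 units.

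In those 5 genes, MMP13 excepted, ESC arrays of a line disagreed. Of 663 pairs of a member and a source, 5 had arrays that differed by at least 2 log2 units, a limit chosen after the values were seen, and all 5 were in ESC lines at MMP1, MMP3, MMP10 and MMP12. The median difference over all pairs was 0.19. MMP3, a stromelysin of wide substrate range, had array values of 5.19, 5.13 and 9.52 in C3106 and 6.90 and 5.11 in C3806. MMP10, its close relative, had 4.16, 3.63 and 7.37 in C3106 and 5.15 and 3.38 in C3806. In both lines the array with the highest MMP12 was also the array with the highest MMP3 and MMP10 (C3106d and C3806a). MMP1 was highest in these arrays too, at 9.86 in C3106d against 9.79 and 8.74, and at 8.88 in C3806a against 4.56. The fibroblast markers averaged 6.49 in C3106d and 6.88 in C3806a, against 6.48 to 6.68 in the other 3 ESC arrays. The actin signal at the 3′ end exceeded that at the 5′ end by 0.74 in C3106d and 3.89 in C3806a, against 0.26 to 0.76 in the other 3. This excess grows as RNA integrity falls, and C3806a was 1 of the 2 used arrays of C3806. The part of these measures in the result was not tested.

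MMP1, the main collagenase of fibroblasts, had array values of 8.88 and 4.56 in C3806, against 9.79, 8.74 and 9.86 in C3106. C3806 differed from C3106 by −2.75 (limma adjusted p = 0.00294 over arrays), the only member called between the ESC lines, where 1.08% of all genes were called. This test rests on 2 arrays of C3806 that differ by more than the lines do. Over sources, MMP1 differed between ESC and teratoma fibroblasts by −2.29 (SE 0.99, adjusted p = 0.085), MMP3 by −3.16 (SE 1.60, adjusted p = 0.14) and MMP13 by −1.67 (SE 0.99, adjusted p = 0.208). None of these 3 was called over sources. With arrays as units and source as a random block all 3 were, MMP1 at −2.22 (adjusted p = 0.0155), MMP3 at −3.17 (adjusted p = 0.0167) and MMP13 at −1.70 (adjusted p = 0.0205). That fit took a common correlation between arrays of a source for all genes. For genes whose cultures differ far more than their arrays, it counts arrays as more separate than they are. Its adjusted p is then too small, and the SE of MMP13 was 0.60 there against 0.99 over sources.

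MMP10 was called lower in ESCs against both kinds. Its source means were 5.05 and 4.26 in the ESC lines, 6.89 to 8.98 in teratoma cultures with a median of 8.28, and 6.72, 7.82 and 5.33 in the skin cultures. Teratoma cultures lay above both ESC lines, while skin culture M106p1 came close to C3106. The difference was −3.55 (limma adjusted p = 0.00041) from teratoma and −1.96 (adjusted p = 0.0335) from skin fibroblasts. The difference from skin fibroblasts was not called with 1 ESC source left, at −2.36 without C3106 (adjusted p = 0.0574) and −1.57 without C3806 (adjusted p = 0.21). Nor was it called without M032 (−1.92, adjusted p = 0.0699) or M088 (−1.37, adjusted p = 0.113).

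Without C3106d and C3806a, MMP12 was still called against teratoma fibroblasts, but its difference from skin fibroblasts was 1.57 with an adjusted p of 0.064 in limma. In the same setting MMP1 (−3.47, adjusted p = 0.031) and MMP3 (−4.33, adjusted p = 0.0467) were called lower in ESCs than in teratoma fibroblasts. MMP1 was also called when C3806a but not C3106d was left out (−3.37, adjusted p = 0.0389). C3106d and C3806a are the arrays with the highest MMP12, MMP3 and MMP1 of each line, so leaving them out lowers the ESC means by construction. MMP3 was called against teratoma fibroblasts without skin culture M032, at the same difference of −3.16 (adjusted p = 0.0332). MMP1 was called without teratoma culture TD31 (−2.70, adjusted p = 0.012). It was also called without ESC line C3106 (−3.66, adjusted p = 0.0433), which leaves the 2 discordant arrays of C3806 as a single ESC source that is assumed to vary like the other groups.

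**Figure D4:**
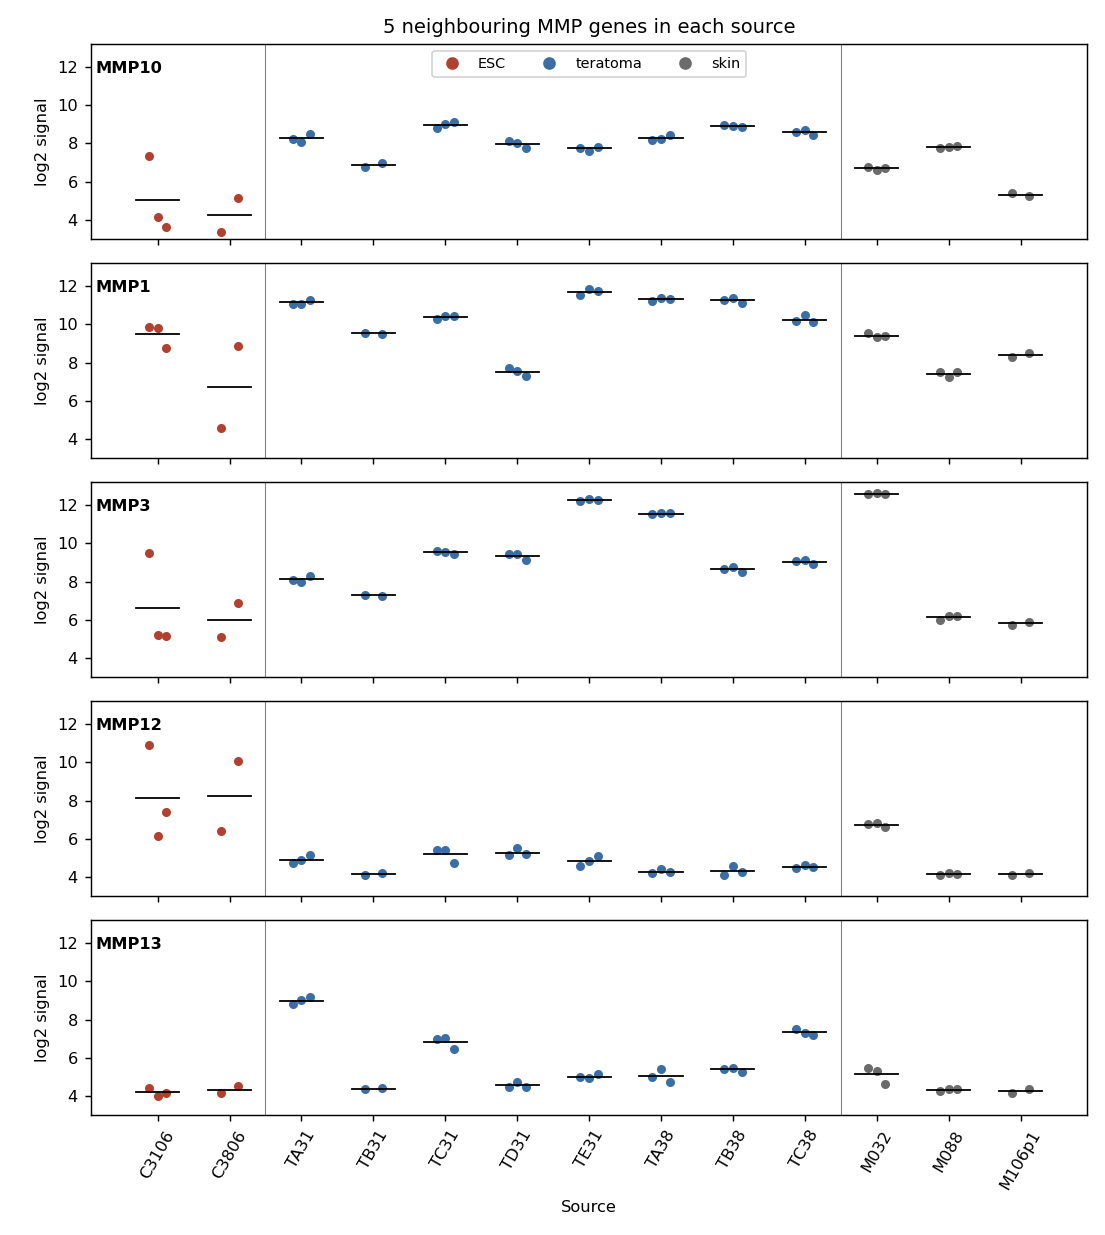
Log2 signal per array (points) and source mean (lines) for 5 neighbouring MMP genes in the 13 sources. Arrays of the ESC lines spread over several log2 units at MMP10, MMP1, MMP3 and MMP12, while arrays of a fibroblast culture lie close together and the cultures differ.

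The secreted MMPs also set the fibroblast cultures apart from each other. An F test over arrays, which measures only the spread between arrays of a culture, called 17 members among the 5 cultures of line 3106, where 11.6% of all genes were called. It called 8 members among the 3 cultures of line 3806, where 5.09% of all genes were called, and 13 among the 3 skin cultures, where 8.77% were. A call here required a range of culture means of at least 1 log2 unit.

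MMP3 had culture means of 8.12, 7.29, 9.52, 9.33 and 12.26 in TA31 to TE31 and 11.54, 8.64 and 9.03 in TA38 to TC38. TE31 and TA38 stood above the other teratoma cultures. In skin the range was wider still, with 12.59 in M032 and 6.14 and 5.81 in M088 and M106p1. The limma F test gave adjusted p of 1.85e-06 among cultures of line 3106, 0.000575 among those of line 3806 and 1.78e-10 among skin cultures.

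MMP13, a collagenase known from cartilage and bone, was high in other cultures. Its means were 8.99 in TA31, 7.33 in TC38 and 6.83 in TC31, while the other 5 teratoma cultures lay between 4.39 and 5.39, the skin cultures between 4.27 and 5.14 and the ESC lines at 4.21 and 4.34. Adjusted p in the F test was 1.86e-18 among cultures of line 3106 and 3.82e-11 among those of line 3806. MMP1 was lowest in TD31 at 7.51 and highest in TE31 at 11.70, a range of 4.19 among cultures of line 3106 (adjusted p = 5.53e-07). The same cultures did not lead in all 3 genes.

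Among the 10 members with the widest range over the teratoma cultures were also ADAMTS4, ADAMTS5, MMP9, MMP10, ADAMTS1, MMP11 and ADAMTS3. MMP9 was at 8.26 in TA38 and 8.08 in TC38, against 6.12 to 7.41 in the other 6, and the F test called it in each line (adjusted p = 4.01e-05 in line 3806 and 4.18e-06 in line 3106). ADAMTS1 was highest in TE31 and TA38 at 11.40 and 11.41, the cultures with the highest MMP3, and the other 6 lay between 9.32 and 10.64. MMP11, a stromelysin with little action on matrix proteins, was also highest in TE31 and TA38, at 9.67 and 9.996 against 7.99 to 8.66 in the other 6. ADAMTS3 was highest in TB31 at 8.55 against 6.56 to 7.69, and MMP23 was highest there too at 9.80 against 8.07 to 8.82. TB31 had the highest mean of skeletal muscle markers, at 8.67, and the part of that in the result was not tested. TD31, with the next highest mean of 8.41, was at 7.14 for ADAMTS3 and 8.29 for MMP23.

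In skin, M032 stood apart in several members at once. It was highest of the 3 in MMP3, and also in MMP9 with 8.78 against 6.44 in M088 and 6.56 in M106p1, and in MMP12 with 6.74 against 4.17 and 4.15. ADAMTS4 was at 9.45 in M032 against 7.26 and 8.08. M106p1 was the highest in ADAMTS1 (12.30) and ADAMTS7 (9.93), where M032 was the lowest of the 3 at 10.55 and 8.40. The mean of 6 smooth muscle markers had the same order, with 10.06 in M032, 10.99 in M088 and 11.43 in M106p1, and among teratoma cultures it ran from 9.30 in TD31 to 10.82 in TE31. The part of these markers in the result was not tested.

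Teratoma and skin fibroblasts were compared to ask whether fibroblasts grown from ESC-derived tumours carry the same members as those of the parents. Of the 51 members, 2 were called higher and none lower in teratoma fibroblasts, where 1.0% of all genes were called higher, 0.793% lower and 1.8% either way. At an unadjusted p under 0.05, 10 members differed. The median log2 difference was −0.01 over the members and 0.01 over all genes. ADAMTS3 was higher by 1.71 (SE 0.34, limma adjusted p = 0.0188) and MMP23 by 1.10 (SE 0.29, adjusted p = 0.0454). Without M032 the ADAMTS3 call was lost (1.39, adjusted p = 0.085). MMP23 lost its call when any 1 of 11 sources was left out and kept it only without TB38 or TE31. Without M032 its adjusted p was 0.142, the highest of these, and without TB31 its difference fell below the size limit, at 0.93 (adjusted p = 0.0158). For ADAMTS3 no teratoma culture overlapped the skin cultures, and for MMP23 none did either.

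MMP16 differed by 0.92 (limma adjusted p = 0.0147), below the size limit, and by 1.18 (adjusted p = 0.0156) on its next probe set when all probe sets were fitted as separate features. MMP10 differed between teratoma and skin fibroblasts by 1.58 (adjusted p = 0.0813) and MMP1 by 1.97 (adjusted p = 0.179), and neither was called. ADAMTS7 differed by −1.09 (adjusted p = 0.0644), ADAMTS1 by −1.20 (adjusted p = 0.155) and ADAMTS5 by −1.14 (adjusted p = 0.239), and none of the 3 was called. These 5 had cultures of both kinds with overlapping values. With arrays as units and source as a random block all 5 were called, at adjusted p of 0.0255 for MMP10, 0.0267 for MMP1, 0.00139 for ADAMTS7, 0.00444 for ADAMTS1 and 0.0143 for ADAMTS5. The limit given above for that fit, a common correlation for all genes, applies to these calls too. ADAMTS5 was also called with 5 classes (−1.36, adjusted p = 0.0404). Leaving out M088 gave a call for MMP10 (2.18, adjusted p = 0.0316), and leaving out M032 (adjusted p = 0.0399) or TE31 (0.0334) gave one for ADAMTS7. The ADAMs and TIMPs that separated ESCs from fibroblasts were not called here, with differences of ADAM12 at 0.24, TIMP1 at −0.11, TIMP2 at −0.58, TIMP3 at −0.21 and ADAMTS2 at 0.08. Of the TIMPs, TIMP2 had an unadjusted p of 0.0264 (adjusted p = 0.149).

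Teratoma fibroblasts of line 3806 were set against those of line 3106, and none of the 51 members was called in limma, where 0.0354% of all genes were called higher, 0.00708% lower and 0.0425% either way. At an unadjusted p under 0.05 there were 5, led by ADAMTS5. ADAMTS5 had culture means of 7.45, 6.36 and 6.78 in TA38 to TC38, against 7.82, 8.97, 8.80, 8.997 and 8.78 in TA31 to TE31. The cultures of the lines did not overlap, and the difference was −1.81 (SE 0.32, adjusted p = 0.168). Without TA31 it was called (−2.02, adjusted p = 0.0464), and under no other alternative run for this comparison. The ADAMTS5 difference was −0.77 (adjusted p = 0.371) on the next brightest probe set and −1.19 (adjusted p = 0.268) with the mean of all its sets. ADAMTS4, whose difference was 1.32, had an adjusted p of 1.0. The difference between ESCs and teratoma fibroblasts was also compared between the lines, and again none of the 51 was called (2 at an unadjusted p under 0.05, ADAMTS19 and ADAMTS5), where 0.0212% of all genes were called higher, 0.0354% lower and 0.0566% either way.

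Some members looked different on another probe set. Of the 51 members, 33 had several probe sets, giving 101 sets in all. Of 18 members called between ESCs and teratoma fibroblasts, 14 had another set. On the next brightest one, 8 of them passed the size limit in the same direction, 6 were below it and none passed it in the opposite direction. ADAMTS1, ADAMTS2, ADAMTS5, ADAM9, ADAM12, ADAMTS19, MMP16 and TIMP2 were the 8, and TIMP1, MMP2, MMP19, ADAM15, ADAMTS6 and ADAMTS10 the 6.

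The converse was seen for ADAMTS18 and MMP25, which were picked out after their values were seen. ADAMTS18, a secreted protease known from eye development in mice, had 6.75 and 6.66 in the ESC lines on its brightest set and 6.44 to 6.68 in all fibroblast cultures, and was not called there. Its other set had means of 9.86 ± 0.04 in ESCs, 3.96 ± 0.13 in teratoma and 3.96 ± 0.18 in skin fibroblasts. The difference from teratoma fibroblasts was 5.90 (SE 0.11, limma adjusted p = 2.27e-12 over all probe sets). It was 5.90 (SE 0.13, adjusted p = 1.28e-11) against skin fibroblasts.

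MMP25, a leukocyte MMP held in the membrane by a lipid anchor, had means of 7.63 in ESCs and 7.57 in teratoma fibroblasts on its brightest set. On its other set the means were 8.44 ± 0.21 in ESCs, 5.89 ± 0.23 in teratoma and 5.79 ± 0.19 in skin fibroblasts, with differences of 2.55 (limma adjusted p = 1.78e-07) and 2.65 (adjusted p = 5.25e-07). Over all probe sets, 6.27% were called higher and 8.63% lower in ESCs than in teratoma fibroblasts, and of the 101 sets of members 6 were higher and 26 lower. The shares of all sets were 9.61% higher and 9.94% lower in ESCs than in skin fibroblasts, and 0.773% higher and 0.677% lower in teratoma than in skin fibroblasts. Which set reads the main transcript of these genes was not tested.

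ADAMTS8, a proteoglycanase known from lung, was not called on its brightest set, with means of 5.99 in ESCs, 6.46 in teratoma and 6.13 in skin fibroblasts. On its other set it had 5.04 in ESCs, 6.84 ± 0.99 in teratoma and 5.21 in skin fibroblasts, and the difference of ESCs from teratoma fibroblasts was −1.80 (limma adjusted p = 0.0314). On that set the arrays of TC31, TC38 and TD31 lay between 7.47 and 8.41 and those of the other 5 teratoma cultures between 5.35 and 6.68.

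**Figure D5:**
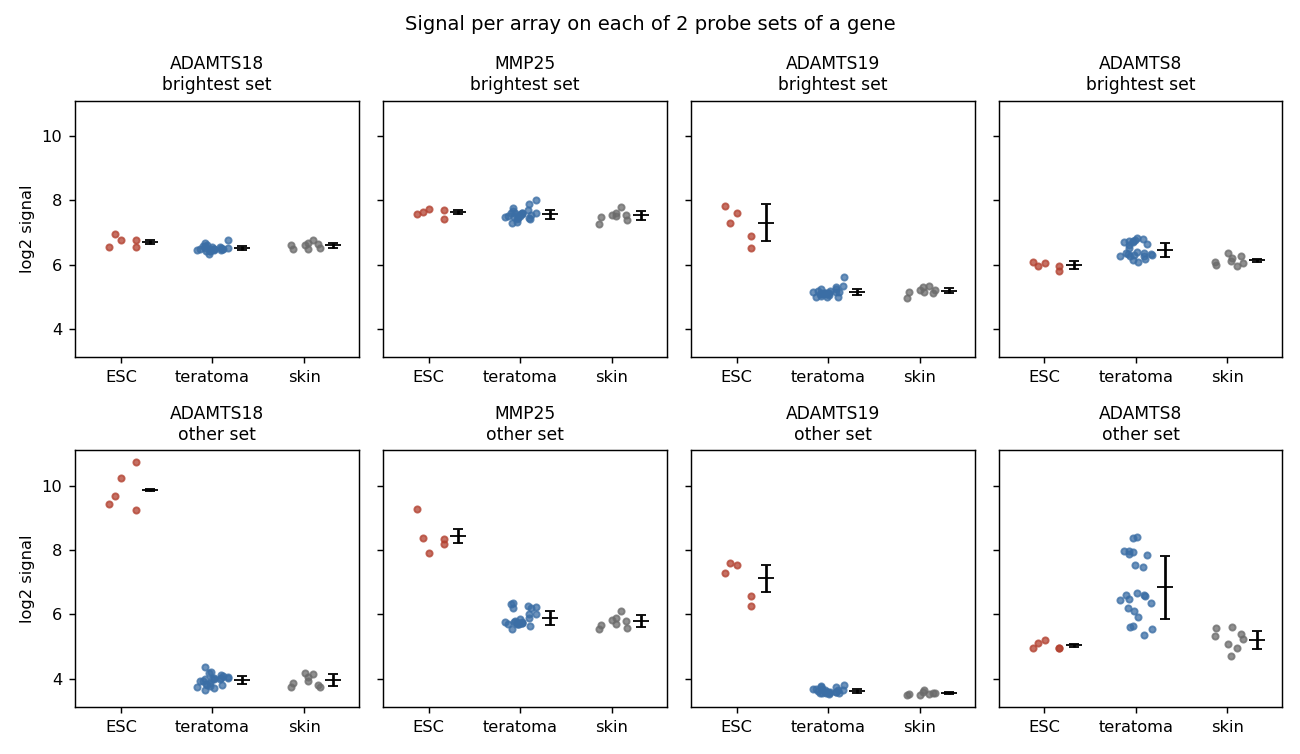
Log2 signal per array (points) in ESC, teratoma and skin cells on the brightest (top) and the other probe set (bottom) of 4 members, with the mean and SD over 2, 8 and 3 sources beside them. ADAMTS18 and MMP25 are level on the brightest set and high in every ESC array on the other, ADAMTS19 is high in ESCs on both, and ADAMTS8 splits the teratoma arrays on the other set.

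A total of 16 members spanned less than 0.5 log2 units over the 13 sources on their brightest set. They were ADAM20, ADAM22, ADAMTS13, ADAMTS14, ADAMTS15, ADAMTS17, ADAMTS18, ADAMTS20, MMP8, MMP20, MMP21, MMP24, MMP25, MMP26, MMP27 and MMP28. Several have known homes in other tissues, such as MMP20 in tooth enamel, MMP8 in neutrophils and ADAMTS13 in liver. Signal of a low probe set cannot be told from background in a table without detection calls, and 12 members had a mean under 6.

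Genes that act with the members were taken from lists by role. Their counts stand against 8.36% of all genes called lower, 6.49% higher and 14.9% either way in ESCs against teratoma fibroblasts. Of 13 astacins and other matrix proteases, 6 were lower and 1 higher in ESCs than in teratoma fibroblasts. FAP, a membrane protease of activated fibroblasts that is also a fibroblast marker, differed by −7.75 and the serine protease HTRA1 by −3.27 (limma adjusted p = 7.6e-08 and 8.09e-09). BMP1, which trims procollagen at its C-terminus, differed by −2.27 (adjusted p = 6.46e-05). The cathepsin CTSV was the 1 that was higher, with a mean of 10.47 in ESCs and 3.42 in teratoma fibroblasts (7.05, adjusted p = 5.43e-09).

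Of 12 ADAMTS substrates, 5 were lower in ESCs than in teratoma fibroblasts and none higher. These were DCN (−6.85), COL1A1 (−4.41), COL1A2 (−3.96), FN1 (−3.10) and BGN (−2.02), and DCN, COL1A1 and COL1A2 also stand in the fibroblast marker list. Of 16 substrates of the sheddases, 3 were lower and 1 higher, which is 25.0% of the list against 14.9% of all genes. HBEGF, the growth factor precursor that ADAM12 cuts, had means of 7.17 in ESCs, 10.02 in teratoma and 10.49 in skin fibroblasts (−2.84 from teratoma, limma adjusted p = 0.000131). L1CAM, a neural adhesion protein, was higher in ESCs by 2.42 (adjusted p = 0.00161).

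Of 10 further regulators of MMPs, 2 were lower in ESCs than in teratoma fibroblasts and 5 lower than in skin fibroblasts, none being higher in either. These were 20.0% of the list against 14.9% of all genes in the comparison with teratoma fibroblasts, and 20.2% of all genes were called in that with skin fibroblasts. RECK, a membrane-anchored MMP inhibitor, had means of 8.43 in ESCs, 9.49 in teratoma and 10.75 in skin fibroblasts and was called against skin fibroblasts (−2.33, limma adjusted p = 0.00177). Of 5 ADAMTS-like proteins, which lack the protease domain, ADAMTSL1 (−2.07) and ADAMTSL4 (−1.38) were lower than in teratoma fibroblasts. In the plasminogen system, SERPINE2 was the 1 of 5 called there (−2.09).

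Of 10 genes for AP-1, NF-kB and related factors, which drive MMP promoters, 5 were lower and 1 higher in ESCs than in teratoma fibroblasts. RUNX2, which activates MMP13 in bone, differed by −5.03 and NFKB1 by −3.15 (limma adjusted p = 2.98e-05 and 5.51e-07), while ETS2 was higher by 1.82 (adjusted p = 0.00536). Of 11 inflammatory inducers 4 were lower, led by IL6 at −6.57 (adjusted p = 3.57e-05), with means of 4.01 in ESCs, 10.58 in teratoma and 11.99 in skin fibroblasts. Against skin fibroblasts, where 9.91% of all genes were called lower and 10.3% higher, the counts lower and higher in ESCs were 6 and 1 for the astacins and other matrix proteases, 5 and 0 for the ADAMTS substrates, 4 and 1 for the sheddase substrates, and 2 and 0 for both the plasminogen system and the ADAMTS-like proteins. They were 5 and 1 for the AP-1, NF-kB and related factors and 4 and 0 for the inflammatory inducers. No gene of these 8 lists was called in limma between teratoma and skin fibroblasts, where 1.8% of all genes were. At an unadjusted p under 0.05 there were 7 of the 10 further regulators, 3 of the 5 plasminogen genes and 0 to 4 genes in each of the other 6 lists.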

How the data were processed

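Expression was measured on single-colour oligonucleotide arrays, 39 in all. The authors deposited a log2 signal for each probe set on each array, made with GCOS and RMA per the submitters' processing notes. Program versions and settings are not given in those notes. RMA equalises the arrays' distributions, so differences are relative, and array medians lay between 6.25 and 6.48. Array number limits the precision, and no read depth applies. Of 52865 probe sets, the platform annotation names 1 gene for 24969, several for 361 and none for 27535. Without controls, 24956 sets cover 14132 genes, and each gene took its brightest set by the mean of all 39 arrays. Gene neighbours came from RefSeq assembly T2T-MMU8v2.0, where 50 of the 51 members matched.

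Used arrays of a source were averaged, and the 13 means were fitted in limma 3.58.1 (R 4.3.3) as 3 kinds of cell, which left 10 residual degrees of freedom. Tests were two-sided, with Benjamini-Hochberg adjustment over all genes. The line comparison and the comparison of differences between lines used 5 classes. Tests between ESC lines and among cultures used 36 arrays with the 13 sources as groups. The fit was tested on simulated data. Alternatives were another probe set or the mean of all sets, a mean of at least 6, all 39 arrays, subtracted medians, repeated quantile normalization, other variance models, source as a random block, line as a block and each source left out. Leaving out array C3806a as well was another. The members and lists were chosen with earlier results of these data known. Members are named where called in a main comparison, where they belong to a list of well-studied members, or where they vary most among teratoma cultures. Of each further list, up to 4 genes with the largest differences are named. MMP23, which was in no list, was added to the membrane-anchored MMPs after the lists were written.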

Additional observations from a re-analysis of the deposited data

Results flagged for a closer look

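In the 8 teratoma cultures, the 30 named members were checked for a culture far from the others, and 3 had one by Dixon's test at the 95% level. Chance flags about 1 in 20 groups that are not picked by their values. Some of the 30 were named for their wide range over these cultures, so that rate does not hold for them. ADAM19 was lowest in TD31 at a log2 signal of 9.37, and the nearest other culture had 10.42. MMP14 was highest in TE31 at 8.76, and the nearest other had 8.40. MMP23 was highest in TB31 at 9.80, and the nearest other had 8.82. Without TB31 the MMP23 difference between teratoma and skin fibroblasts was 0.93, below the size limit, with a limma adjusted p of 0.0158.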

How the results depend on the processing

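Of the members called and named, 10 of 18 in ESC minus teratoma, 8 of 19 in ESC minus skin and 0 of 2 in teratoma minus skin kept their call under each of the 27 alternatives that could be run for them. On the brightest other probe set, members called were 4 higher and 8 lower in ESC minus teratoma, 7 lower in ESC minus skin and 1 higher in teratoma minus skin. These sets cover fewer members, and MMP2 changed sign there, to 0.0111 against teratoma and 0.0637 against skin fibroblasts. Members higher in ESCs than in teratoma fibroblasts were 4 with the mean of all probe sets, 5 with any set called, and 0 among genes with a mean of at least 6, a filter that removes MMP12 and ADAMTS19. Against skin fibroblasts that filter left 1 higher, and leaving out C3106d and C3806a as well left 2. In teratoma minus skin, members higher were 1 with 5 classes, 0 with all 39 arrays, 1 with medians subtracted and 4 with source as a random block, and members lower were 1 with 5 classes and 3 with the random block. Without 1 source at a time the counts ran from 0 to 2 higher and from 0 to 1 lower in teratoma minus skin, and from 0 to 1 lower in line 3806 minus line 3106 teratoma. Except where named, the cause was not tested. The settings with any set called and without C3106d and C3806a were chosen after seeing the data. With the line as a block, pairing the ESC and teratoma sources of shared genome, ESC minus teratoma again gave 2 higher and 16 lower and changed no call of a named member. Replicate letters tie no sample to another. With 2 ESC lines and 3 skin cultures, small differences could not be told from the spread.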
